A study of Mus musculus with 16 samples.

Results

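The Cyp3a family of the mouse was examined by its open chromatin in liver, through 7 genes: Cyp3a11, Cyp3a13, Cyp3a16, Cyp3a25, Cyp3a41a, Cyp3a41b and Cyp3a44. A DNase hypersensitive site (DHS) is a short stretch of open chromatin that DNase I cuts readily. Peaks of the 4 DHS lists were merged into 1 region wherever they shared at least 1 bp. A region was taken for the family where it overlapped a member gene or the 20 kb on either side of it, in assembly mm9. This gave 12 of the 51482 regions of the series. They lay at 4 members, 4 regions at Cyp3a16, 3 at Cyp3a11, 3 at Cyp3a13 and 2 at Cyp3a25. Cyp3a41a, Cyp3a41b and Cyp3a44 had 0 regions. Regions are named below by their gene and by the distance of the summit, the position of most reads, from the gene's annotated start.

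DNase-seq was performed on purified liver nuclei of male and female mice of C57BL/6J (B6), the strain behind the reference genome, and CAST/EiJ (CAST), a wild-derived strain. The 4 groups were male B6, female B6, male CAST and female CAST, with 4 libraries each, from mice labelled as 8 weeks old. Every library came from digestion with 32 units of DNase I, and no group carried a transgene or another treatment per the labels. The authors merged the libraries of a group before calling peaks, so each group has 1 list and no spread between animals could be computed for any value below.

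CYP3A enzymes are haem-containing monooxygenases of the endoplasmic reticulum that oxidise many drugs and steroids, testosterone among them. They take electrons from P450 oxidoreductase (Por) and cytochrome b5. Their genes are induced when the xenobiotic sensors PXR (Nr1i2) or CAR (Nr1i3), each paired with RXR, bind pairs of receptor half-sites near them. In mouse liver Cyp3a11, Cyp3a13 and Cyp3a25 are expressed in both sexes, while Cyp3a16, Cyp3a41 and Cyp3a44 are known as female-biased genes under growth hormone control, in which the pulse-activated factor STAT5 and the repressors BCL6 and CUX2 take part.

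Of the genes without regions, Cyp3a41a and Cyp3a41b were nearly the same in sequence, and Cyp3a44 was close to both. Cyp3a11 and Cyp3a16, which had regions, were also close to them in coding sequence, at 95.2% and 92.8% identity to Cyp3a41a. The sequences of mm9 just upstream of the annotated start are shown for 5 genes of the chromosome 5 cluster, because 4 of them are alike over this stretch and the annotated start of Cyp3a11 lies at another point of a related sequence. Each is the 200 bases before the start, read 5′ to 3′ on the minus strand, on which all 7 genes are transcribed. Capitals mark matches to a FOXA word (TGTTTAC or TGTTTGC) or an HNF4A word (CAAAGTCCA or CAAAGTTCA), searched on both strands. The sequences span chr5:146531713-146531912 for Cyp3a41a, chr5:146345600-146345799 for Cyp3a41b, chr5:146617451-146617650 for Cyp3a44, chr5:146230593-146230792 for Cyp3a16 and chr5:146691541-146691740 for Cyp3a11.
Cyp3a41a: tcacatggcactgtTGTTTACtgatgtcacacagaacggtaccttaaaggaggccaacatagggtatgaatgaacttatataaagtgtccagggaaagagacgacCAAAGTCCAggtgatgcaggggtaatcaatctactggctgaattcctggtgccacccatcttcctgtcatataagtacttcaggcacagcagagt
Cyp3a41b: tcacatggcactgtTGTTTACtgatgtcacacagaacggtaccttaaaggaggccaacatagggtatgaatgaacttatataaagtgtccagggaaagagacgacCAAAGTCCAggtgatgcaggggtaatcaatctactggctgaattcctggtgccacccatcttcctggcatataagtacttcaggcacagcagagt
Cyp3a44: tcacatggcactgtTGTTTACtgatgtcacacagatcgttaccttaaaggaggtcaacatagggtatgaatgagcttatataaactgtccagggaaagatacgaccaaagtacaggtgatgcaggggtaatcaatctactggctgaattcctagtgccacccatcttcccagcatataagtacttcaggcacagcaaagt
Cyp3a16: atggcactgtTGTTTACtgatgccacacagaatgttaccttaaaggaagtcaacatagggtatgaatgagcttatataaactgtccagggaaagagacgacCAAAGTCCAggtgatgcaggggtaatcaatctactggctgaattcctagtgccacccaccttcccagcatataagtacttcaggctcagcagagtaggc
Cyp3a11: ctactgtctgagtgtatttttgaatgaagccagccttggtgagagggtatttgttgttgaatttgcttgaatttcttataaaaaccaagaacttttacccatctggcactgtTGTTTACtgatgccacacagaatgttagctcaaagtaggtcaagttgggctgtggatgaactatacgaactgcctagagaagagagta

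Cyp3a41a and Cyp3a41b differed at 1 of these 200 bases, T172G counted from 1 at the 5′ end of the Cyp3a41a sequence, and their coding sequences were 99.9% identical. Cyp3a44 was 94.0% identical to Cyp3a41a upstream and 95.8% in the coding sequence. Cyp3a16 was 89.7% identical to Cyp3a41a upstream, with 13 substitutions and 8 alignment columns holding a gap. The coding sequence of Cyp3a11 was 95.2% identical to that of Cyp3a41a, but the 200 bases before both starts were 51.1% identical, with 58 columns holding a gap. Placed freely within 500 bp on either side of the Cyp3a11 start, the Cyp3a41a sequence was 75.8% identical to Cyp3a11, from position -102 to position 104 with the start base as 0. The low value of the end-to-end alignment thus went with the place of the annotated start, and the later bases of the Cyp3a11 sequence above align with the first ones of the other 4. Cyp3a13, outside the cluster, was 55.5% identical to Cyp3a41a upstream, 55.9% when placed freely, and 75.8% in the coding sequence.

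A FOXA word was present upstream of 5 of the 7 members, Cyp3a11, Cyp3a16, Cyp3a41a, Cyp3a41b and Cyp3a44. It was present in 5.21% of the 22380 protein-coding genes over the same length. FOXA factors open liver chromatin. The HNF4A word, for a nuclear receptor that defines hepatocytes, was in these 200 bases at Cyp3a16, Cyp3a41a and Cyp3a41b, and at 0.608% of all protein-coding genes. In Cyp3a11 the aligned bases, CAAAGTCCA, are the same word, at position 1 after the start base and so outside the 200 bases shown. In Cyp3a44 the aligned word carried C7A, counted from 1 at the 5′ end of the Cyp3a16 word CAAAGTCCA. These sequences share ancestry, so the members are not independent cases.

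The 3 genes with 0 regions were Cyp3a41a (chr5:146505635-146531712), Cyp3a41b (chr5:146319544-146345599) and Cyp3a44 (chr5:146585559-146617450). Over all protein-coding genes, 25.1% had no region within 20 kb, and the median gene had 2 regions. The nearest region to the start of Cyp3a41b lay 57.9 kb away and that to the start of Cyp3a44 73.8 kb away. For Cyp3a41a the distance was 128 kb.

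The authors kept only reads that mapped to a single place, in pairs of 50-base reads, so the share of 50-base words that occur a single time in mm9 was computed for each gene. In the window of the gene and 20 kb on either side, this share was 36.2% for Cyp3a41b and 38.4% for Cyp3a41a. It was 62.9% for Cyp3a44, 72.6% for Cyp3a16, 75.8% for Cyp3a11, 79.8% for Cyp3a25 and 91.8% for Cyp3a13. Within the gene itself it fell to 17.7% for Cyp3a41b and 19% for Cyp3a41a. Both Cyp3a41 genes had the lowest shares of the family. Cyp3a44, with 0 regions, had a higher share than either of them in the gene, at 68.5%, and Cyp3a16, with 4 regions, had 79.0%.

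Around the start, over 500 bp on either side, the share was 23.1% for Cyp3a41a, 23.7% for Cyp3a41b and 84.2% for Cyp3a44. Among the 1243 protein-coding genes with a share under 50% there, 84.9% had no region within 20 kb. Among the other 21137 genes it was 21.5%. All 12 regions of the family sat on sequence of which at least 99.6% of words around the summit were single in mm9. The same share had a median of 100% over all regions of the series, and 0.21% of them were below 50%. Peaks were called from uniquely mapped reads, so high shares at called regions largely follow from the method. The part of read mapping in the lack of regions at Cyp3a41a, Cyp3a41b and Cyp3a44 was not tested. A pair can map to a single place when only 1 of its reads is unique, and the CAST version of the genome was not examined here.

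**Figure D1:**
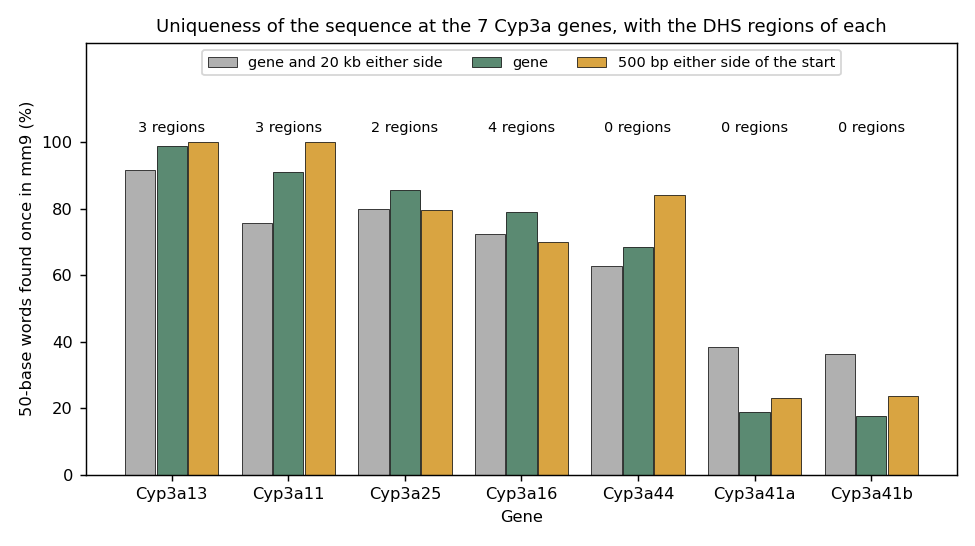
Bars give the percentage of 50-base words found a single time in mm9 (y axis) for each of the 7 genes (x axis), over the gene with 20 kb on either side, over the gene, and over 500 bp on either side of its start. The number above each gene is its count of DHS regions. Cyp3a41a and Cyp3a41b, at 38.4% and 36.2% in the wide window, had 0 regions, as did Cyp3a44 at 62.9%.

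Of the 12 regions, 9 had a peak in male B6 and 9 in female B6, while male CAST had 10 and female CAST had 7. Over all regions of the series the same shares were 74.6%, 50.0%, 76.2% and 47.3%. The regions found in all 4 lists numbered 5, beside 35.6% of all regions. A further 3 were in 3 lists (12.1% of all regions) and 2 were in a single list (35.2%). At Cyp3a16 lay the 1 region found in both B6 lists and no other (3.32% of all regions) and the 1 region found in both CAST lists and no other (3.62%). Both classes fell to 0 regions at a stricter threshold (−log10 q of at least 15.7), which the female peaks did not reach, and the CAST one also with windows of 10 kb. At that threshold male and female B6 held 7 and 2 regions of the family, and male and female CAST 7 and 3. Those in all 4 lists were then 2 and those in a single list 6. The family had 0 regions found in both male lists only, a class with 9.38% of all regions, and 0 found in both female lists only, a class with 0.0622%. The male class held 1 region at the stricter threshold and 1 with windows of 50 kb. As both classes were empty in the main setting, the sexes were compared at this family by the heights of its regions.

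**Figure D2:**
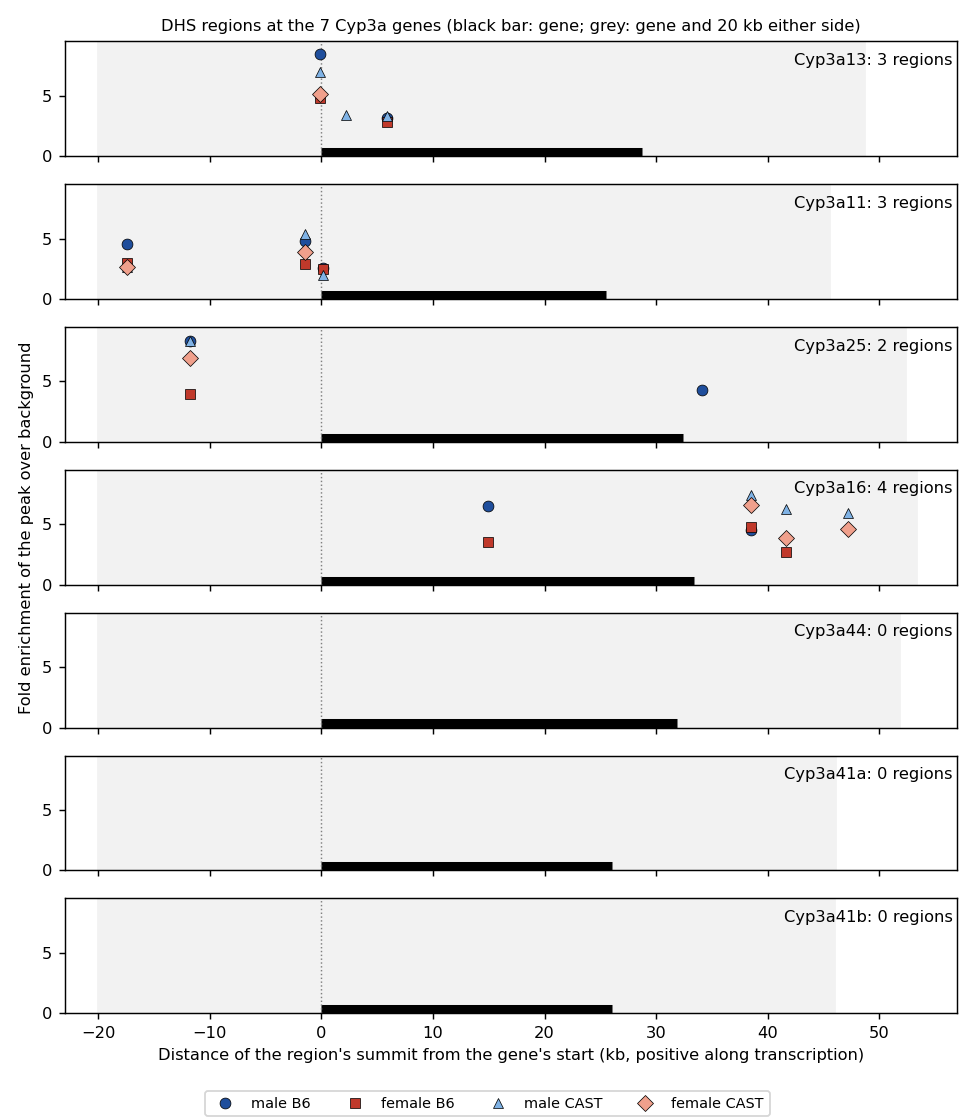
Each panel is 1 gene. The x axis is the distance of a region's summit from the gene's start in kb along transcription, and the y axis is the fold enrichment of the peak in each of the 4 lists, by marker. Regions of Cyp3a13 and Cyp3a11 reached the start, those of Cyp3a25 and Cyp3a16 did not, and the lower 3 panels are empty.

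A region within 500 bp of the start was present for 2 of the 7 members in male B6 (50.6% of protein-coding genes), 2 in female B6 (46.3%) and 2 in male CAST (49.8%). In female CAST it was 1 of 7 (43.4%). The members with one were Cyp3a13 in all 4 lists and Cyp3a11 in all but female CAST.

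The sequences of 7 of the 12 regions are shown next, each for the reason given. Each sequence is 200 bases of mm9 around the summit on the plus strand, and none was read from the CAST genome. The Cyp3a16 region 14.95 kb into the gene (chr5:146215540-146215739) is shown because it was found in B6 lists alone, and its capitals mark a pair of nuclear receptor half-sites. The region 47.2 kb along from the start of Cyp3a16 (chr5:146183261-146183460) was found in CAST lists alone, and its capitals mark the qPCR primers that the study designed there. The region 38.5 kb along from the start of Cyp3a16 (chr5:146191998-146192197) was found in all lists, and its capitals mark a C/EBP word. The region 34.1 kb along from the start of Cyp3a25 (chr5:146786952-146787151) was found in male B6 alone, and its capitals mark a STAT5 and BCL6 word. The start-site region of Cyp3a13 (chr5:138362909-138363108) and the region 11.75 kb upstream of Cyp3a25 (chr5:146832841-146833040) had the highest single values of the family, both in male B6, although the Cyp3a16 region 38.5 kb along exceeded the Cyp3a13 one in both CAST lists. The region 17.38 kb upstream of Cyp3a11 (chr5:146708819-146709018) had the lowest CAST over B6 ratio. None of these last 3 held a word searched.
Cyp3a16 +14.95 kb: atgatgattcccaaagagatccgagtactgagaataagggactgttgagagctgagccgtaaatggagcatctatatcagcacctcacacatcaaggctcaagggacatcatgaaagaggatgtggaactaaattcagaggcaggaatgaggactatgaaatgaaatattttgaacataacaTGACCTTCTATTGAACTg
Cyp3a16 +47.2 kb: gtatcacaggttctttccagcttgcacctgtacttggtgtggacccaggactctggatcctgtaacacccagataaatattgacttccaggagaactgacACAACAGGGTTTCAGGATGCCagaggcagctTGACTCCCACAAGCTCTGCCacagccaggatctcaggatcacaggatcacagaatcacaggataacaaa
Cyp3a16 +38.5 kb: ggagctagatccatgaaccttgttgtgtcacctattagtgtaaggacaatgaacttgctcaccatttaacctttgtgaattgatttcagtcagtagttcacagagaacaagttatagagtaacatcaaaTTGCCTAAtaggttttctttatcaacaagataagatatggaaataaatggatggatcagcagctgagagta
Cyp3a25 +34.1 kb: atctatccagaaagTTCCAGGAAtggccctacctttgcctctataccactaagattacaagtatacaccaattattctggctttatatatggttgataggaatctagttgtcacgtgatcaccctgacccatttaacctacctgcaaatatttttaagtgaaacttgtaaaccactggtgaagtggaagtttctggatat
Cyp3a13 start: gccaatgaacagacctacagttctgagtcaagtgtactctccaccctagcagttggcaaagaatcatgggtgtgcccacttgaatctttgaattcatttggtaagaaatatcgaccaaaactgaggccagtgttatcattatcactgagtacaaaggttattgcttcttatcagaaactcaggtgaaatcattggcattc
Cyp3a25 -11.75 kb: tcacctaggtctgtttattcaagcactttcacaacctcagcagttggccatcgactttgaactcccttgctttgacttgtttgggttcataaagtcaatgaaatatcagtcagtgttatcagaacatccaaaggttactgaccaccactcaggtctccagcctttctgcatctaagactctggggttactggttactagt
Cyp3a11 -17.38 kb: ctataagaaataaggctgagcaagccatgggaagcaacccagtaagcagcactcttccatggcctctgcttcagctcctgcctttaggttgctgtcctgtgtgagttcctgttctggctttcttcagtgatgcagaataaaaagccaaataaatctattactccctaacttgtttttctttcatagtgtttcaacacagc

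The height of a peak is given as fold enrichment, the summit pileup of pooled reads over the local background, and as −log10 q, where q is the peak caller's adjusted p of that peak against its own background. The study's methods name input DNA as the background of its peak calls, and whether the background of these lists came from input DNA or from the DNase-seq reads themselves could not be told from the values. The number of reads at the summit, recovered from these values, is the count behind each fold enrichment. The genome-wide background, in reads at a position, ranged from 7.94 in female CAST to 15.35 in male B6. The weakest peaks listed at that background had a fold enrichment of 2.24 in female CAST, against 1.94 in female B6 and 1.90 in both male lists. A peak of a given height could thus be missed sooner in female CAST. Over all regions found in both lists, raw fold enrichment was also higher in males, with a median ratio of 1.32 in B6 and 1.19 in CAST, so raw differences of that size are those of the median region. For the first reason a region without a peak in a list is given as not listed, and no fold is given for it.

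Cyp3a13 (ENSMUSG00000029727.7) lies on the minus strand at chr5:138334160-138362847, apart from the cluster, and its enzyme is also found outside the liver. Its start-site region (chr5:138362633-138363913) covered the start and overlapped the first exon, with its summit 162 bp upstream of the start, and was the widest of the family at 1281 bp. Its fold enrichment was 8.45 and 4.79 in the B6 male and female lists, and 6.99 and 5.13 in those of CAST. The summit pileups were 310, 97, 193 and 63 reads, in the same order. Relative to the median region, male over female, it was at 1.34 in B6 and 1.14 in CAST. Within male B6 this region exceeded 91.5% of the list's regions, and within female CAST 67.5%.

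Inside Cyp3a13, a region over a coding exon 5.92 kb from the start (chr5:138356633-138357309) was present in all lists but female CAST. Its fold enrichment was 3.16 and 2.80 in male and female B6 and 3.35 in male CAST. The 3 values lay close together. An intronic region 2.25 kb from the start (chr5:138360330-138360780) was listed in male CAST alone, at a fold enrichment of 3.38 from 106 reads and a −log10 q of 23.6. It held a word for HNF1 (GTTAATNAT), a liver homeodomain factor, 59 bp before its summit on the plus strand, a word found in 2.03% of all regions.

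Cyp3a11 (ENSMUSG00000056035.7, minus strand, chr5:146666002-146691540) encodes a main drug-oxidising P450 of mouse liver and is a classical target of PXR. Its start-site region (chr5:146691205-146691755) had the lowest fold enrichment of the family in each list that held it, though not the fewest reads. In male B6 its 81 reads exceeded the 73 behind a fold enrichment of 4.52 in the Cyp3a16 region 38.5 kb along. The fold enrichment was 2.59 and 2.52 in male and female B6 and 2.03 in male CAST, from 81, 43 and 52 reads, and the region was not listed in female CAST. These heights exceeded 25.4%, 21.0% and 2.42% of the regions of their lists. The value in male CAST was below 2.24, the weakest height listed at the genome-wide background in female CAST. That height does not bound peaks with another local background. The start-site region of Apoa1, for example, was listed in male CAST at 1.65, under the 1.90 of that list. Whether the Cyp3a11 start-site region could have been listed in female CAST was not tested.

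A higher region stood 1.45 kb upstream of Cyp3a11 (chr5:146692236-146693341), intergenic and 1106 bp wide. Its fold enrichment was 4.82 and 2.94 in the B6 male and female lists, and 5.42 and 3.91 in those of CAST. It was listed in all 4 groups, and in each list it exceeded the start-site region where that was listed. Relative to the median region, its male over female ratio was 1.24 (95% counting interval 0.886 to 1.78) in B6 and 1.16 (0.793 to 1.75) in CAST, and both intervals included 1.

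The region 17.38 kb upstream of Cyp3a11 (chr5:146708562-146709377) had a fold enrichment of 4.57 and 2.95 in the B6 male and female lists, and 2.63 and 2.68 in those of CAST. Male B6 stood above the other 3 lists, which lay near one another. The summit in male CAST, at position 146709236, was 317 bp from that in male B6 at 146708919. In the 9 other regions found in 2 or more lists, the summits of the lists lay within 20 to 138 bp of one another. The edge of this region was 17022 bp from the gene, the farthest inside the 20 kb limit. The first one beyond the limit was 20345 bp upstream of Cyp3a11 (chr5:146711885-146712589), and its fold enrichment was 7.33 and 4.78 in the B6 male and female lists, and 8.37 and 7.18 in those of CAST. The limit thus left out a region higher in every list than the 3 taken for Cyp3a11.

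Cyp3a25 (ENSMUSG00000029630.9, minus strand, chr5:146788770-146821194) is a P450 of adult liver in both sexes. It had no region at its start, where 79.5% of words were single in mm9. Its main region was intergenic, 11.75 kb upstream (chr5:146832542-146833563), with a fold enrichment of 8.38 and 3.95 in the B6 male and female lists, and 8.33 and 6.93 in those of CAST. The summit pileups were 158, 58, 126 and 61 reads. Female B6 was the low list, and the other 3 lay between 6.93 and 8.38. The summits of the 4 lists lay within 34 bp.

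A second region lay 1438 bp beyond the end of Cyp3a25 (chr5:146786861-146787332). It was listed in male B6 alone, at a fold enrichment of 4.28 from 69 reads and a −log10 q of 21.0. Its sequence, shown above, held TTCCAGGAA, a match to the word of STAT5 (TTCNNNGAA, in 10.2% of all regions) and to that of BCL6 (TTCCNNGAA, in 5.97%). Every BCL6 word is also a STAT5 word, so this is a single match. It was the only one of the 12 regions with either word, and a C/EBP word (TTGCNNAA) began 108 bp after its summit. All these words were searched in 300 bp around each summit. There the HNF4A word was in 1 of the 12 regions, 139 bp after the summit of the Cyp3a11 start-site region (2.99% of all regions). It is the word at the Cyp3a11 start given above. A FOXA word was in 0 of the 12 within these 300 bp (14.2% of all regions). The FOXA word upstream of Cyp3a11 lies inside its start-site region but outside the 300 bp searched.

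Cyp3a16 (ENSMUSG00000038656.5, minus strand, chr5:146197178-146230592) is known from fetal and young livers and as a female-biased gene of the adult. It had the most regions, none at the start, and the regions found in both lists of a strain and in neither list of the other. The regions 2.25 kb into Cyp3a13 and 34.1 kb along from the start of Cyp3a25 were also in 1 strain, but in its male list alone. The region 14.95 kb into the gene, in an intron (chr5:146215475-146215775), had a fold enrichment of 6.48 in male B6 and 3.55 in female B6, from 105 and 52 reads. It was listed in neither CAST group. In male B6 it exceeded 82.9% of the regions of the list. The half-sites in its sequence, TGACCT and TGAACT with 5 bases between them, form on the other strand a direct repeat of AGTTCA and AGGTCA. Pairs of these half-sites, direct with 3, 4 or 5 bases between or everted with 6, were in 0.233% of all regions and in 1 of the 12 here. Such pairs are of the kind that PXR and CAR bind.

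The region 47.2 kb along from the start of Cyp3a16, 13571 bp beyond the gene's end (chr5:146183108-146183607), was its counterpart in CAST. Its fold enrichment was 5.90 in male CAST and 4.59 in female CAST, from 89 and 40 reads, and it was listed in neither B6 group. The −log10 q was 37.6 and 13.1. The amplicon of the study's Cyp3a16 primers, chr5:146183361-146183411, lay inside it, and each primer matched mm9 at a single position. The words around its summit were all single in mm9, as they were in the region found in both B6 lists alone.

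Nearer to the gene, the region 41.7 kb along from the start (chr5:146188615-146189108) was listed in all groups but male B6. Its fold enrichment was 2.75 in female B6, against 6.27 in male and 3.88 in female CAST. The CAST values were the higher ones, at 1.19 (0.734 to 1.92) for CAST over B6 in females relative to the median region. The region 38.5 kb along (chr5:146191739-146192424) was in all 4 lists, at 4.52 and 4.76 in the B6 male and female lists, and 7.44 and 6.61 in those of CAST. Here too both CAST lists exceeded both B6 lists in raw height. Relative to the median region, CAST over B6 was 1.56 in males and 1.17 in females, and the interval in females (0.825 to 1.66) included 1. This region held C/EBP words at 29 and 110 bp after its summit, for factors of the hepatocyte program, and such a word was in 17.2% of all regions. The 3 regions beyond the end of Cyp3a16 had their highest raw values in CAST, while the intronic region was listed in B6 alone.

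**Figure D3:**
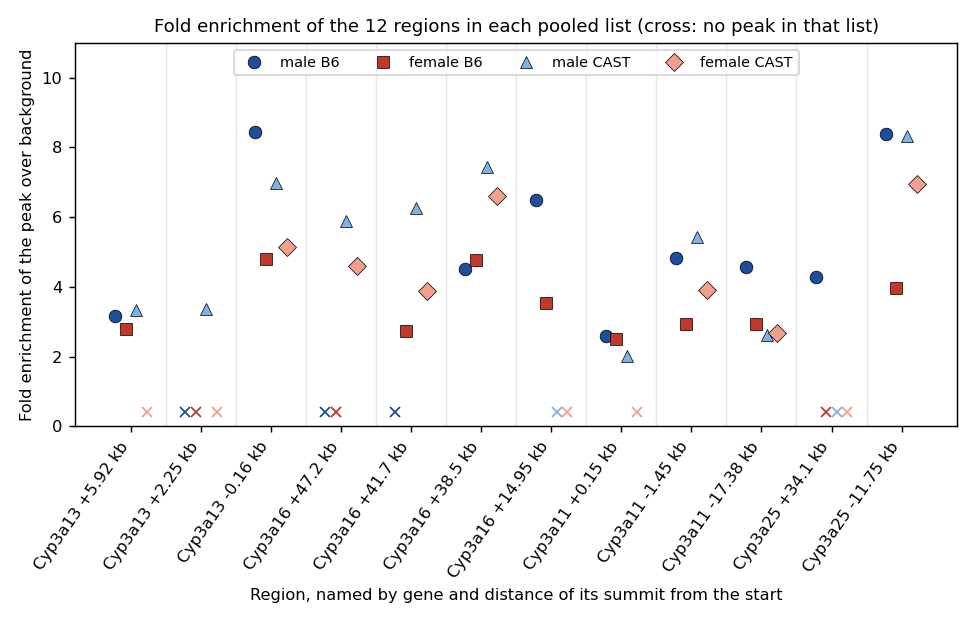
Points give the fold enrichment (y axis) of each of the 12 regions (x axis, named by gene and kb from the start, negative upstream) in the 4 pooled lists, and a cross at the bottom marks a list without a peak. The crosses at Cyp3a16 +47.2 kb fall on the B6 lists and those at Cyp3a16 +14.95 kb on the CAST lists.

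Heights were compared between lists as the ratio of fold enrichments, divided by the median ratio of all regions found in both lists. Beside the male over female medians given above, for CAST over B6 it was 1.06 in males and 1.19 in females. A region was called at 1.5-fold, the study's limit for DHS. The 95% intervals are exact binomial intervals on the summit pileups, which cover counting error only and not the difference between animals.

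Male over female in B6, 1 of the 8 family regions found in both lists was called higher and 0 lower. Of all 23644 such regions, 2.62% were called higher and 2.6% lower. The called region was that upstream of Cyp3a25, at 1.61 (interval 1.18 to 2.21). The start-site region of Cyp3a13 was at 1.34 (1.06 to 1.70), short of the call. The Cyp3a16 region 38.5 kb along had the lowest ratio, 0.721 (0.512 to 1.02). The median of the 8 was 1.21, and 5 of them were above 1. With widths in place of heights the median was 0.935 and 0 regions were called. At the stricter threshold they were 1.02 and 0, and with pileup over the genome-wide background 3 regions were called.

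Male over female in CAST, 0 of 7 regions were called, beside 3.31% higher and 2.56% lower among 22764 regions. The region upstream of Cyp3a25 was at 1.01 (0.737 to 1.39), so its interval did not reach 1.5 in this strain, and the difference between the strains was not tested. The highest ratio was 1.36 (0.920 to 2.05), in the Cyp3a16 region 41.7 kb along. The region of Cyp3a16 found in both CAST lists alone was at 1.08 (0.737 to 1.61). The median of the 7 was 1.08, and it turned to 0.897 with pileup over the genome-wide background and to 0.985 with widths. The 0 calls became 1 with that pileup and 2 with widths.

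CAST over B6 in males, 1 of 7 regions was called higher (6.68% of 29099 regions) and 1 lower (4.49%). The higher one was the Cyp3a16 region 38.5 kb along, at 1.56 (1.16 to 2.101). The lower one was the region 17.38 kb upstream of Cyp3a11, at 0.546 (0.379 to 0.778), a ratio that exceeded 1.36% of all shared regions. Its summits in the 2 male lists lay 317 bp apart, so this ratio compares heights at different positions of the region. The start-site region of Cyp3a13 was at 0.784 (0.652 to 0.941), not past the call. The region 1.45 kb upstream of Cyp3a11 was at 1.06 (0.834 to 1.36). The median of the 7 was 0.942. The 2 calls became 0 with widths, 1 at the stricter threshold and 4 with pileup over the genome-wide background.

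CAST over B6 in females, 0 of 6 regions were called, beside 4.97% higher and 3.42% lower among 18601 regions. The same 2 regions were at 1.17 (0.825 to 1.66) for Cyp3a16 and 0.767 (0.441 to 1.30) for Cyp3a11, on the same side of 1 as in males. The median of the 6 was 1.15, and it turned to 0.908 with widths, with which the 0 calls became 3. The region upstream of Cyp3a25 was highest, at 1.48 (1.01 to 2.15). No region was called in the same direction in both strains or in both sexes. These 4 comparisons share lists, so a value in 1 list enters 2 of them.

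**Figure D4:**
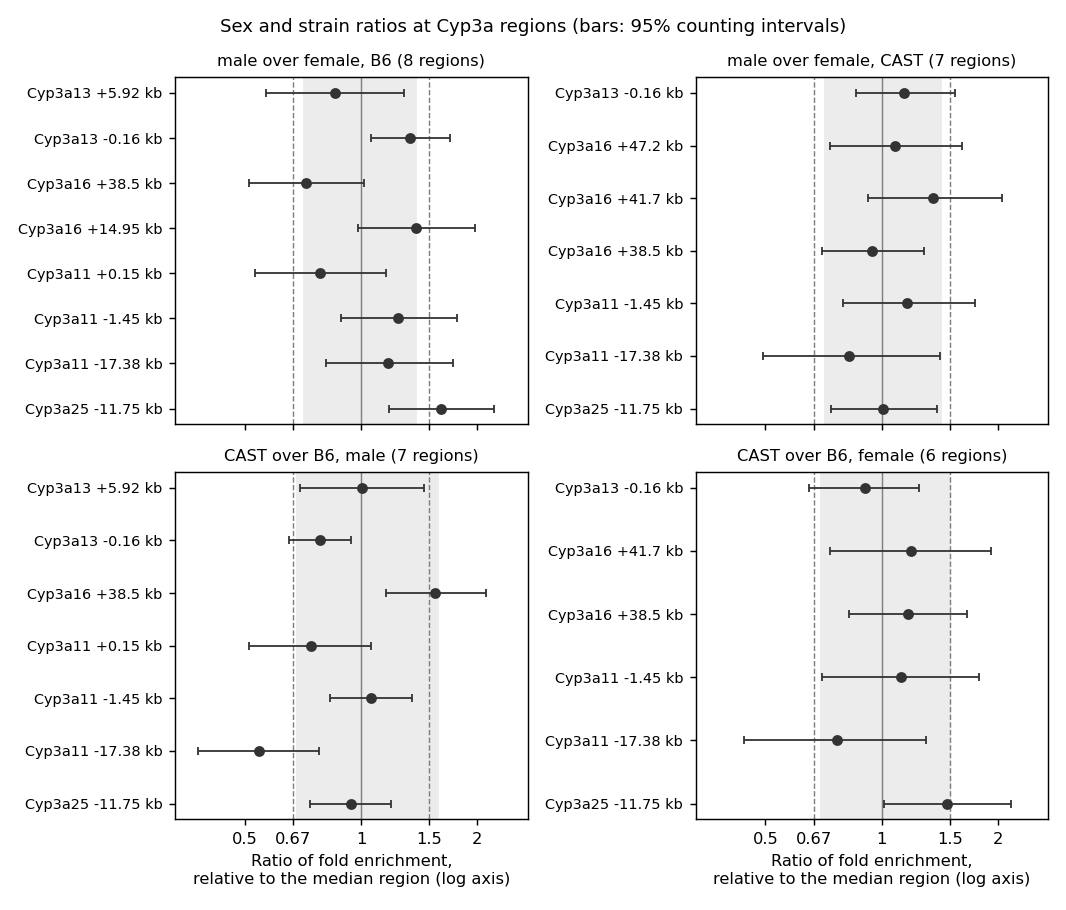
Each panel is 1 comparison. Points are the ratios of fold enrichment of the family's regions relative to the median region (x axis, log scale), bars are 95% counting intervals, the grey band holds the middle 90% of all regions found in both lists, and dashed lines mark 1.5-fold. The points past a dashed line are the regions upstream of Cyp3a25 in B6 (1.61) and, in males, those of Cyp3a16 (1.56) and Cyp3a11 (0.546). The summits behind the Cyp3a11 point lay 317 bp apart.

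The pattern of the Cyp3a13 start-site region over the 4 lists, as log2 fold enrichment less its mean, was most like that at the starts of Tceb2 (distance 0.0274), Med27 (0.0377) and D830039M14Rik (0.0415), among the 9309 protein-coding genes with a start-site region in every list. This is a likeness over 4 values. No other member had a start-site region in all 4 lists.

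The regulators and partners of the family were open at their starts. Of 12 genes (Nr1i2, Nr1i3, Rxra, Hnf4a, Nr3c1, Cebpa, Foxa2, Stat5b, Bcl6, Cux2, Por and Cyb5), 11 had a start-site region in male B6 and 12 in each other list. Por, the electron donor, had a fold enrichment of 12.0 and 10.3 in the B6 male and female lists, and 12.9 and 11.3 in those of CAST. Each value was above every Cyp3a region of its list. Nr1i2, encoding PXR, was at 3.69, 2.54, 3.99 and 4.55, and Nr1i3, encoding CAR, at 3.05, 2.61, 3.50 and 3.96, in the same order. Cux2, a repressor known as female-biased, was the exception: it was not listed in male B6, and stood at 2.72 in female B6, with 2.23 in male and 2.65 in female CAST.

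The tissue label was checked on markers of liver cells, as start-site regions. Of 6 hepatocyte genes, 5 had one in the male lists and 4 in the female lists. The shares over all protein-coding genes, to be read beside each marker set, were 50.6% and 49.8% in male B6 and CAST. In female B6 and CAST they were 46.3% and 43.4%. Of 4 Kupffer cell and 3 stellate cell genes, 0 had one in any list. Of 4 sinusoidal endothelial genes, 3 had a start-site region in the male B6 list, 2 in that of females and 1 in either CAST list, with Stab2 in all 4. Of 3 bile duct genes, Sox9 alone had one, in all 4 lists. In whole liver nuclei, fewer open cells and less opening per cell cannot be told apart.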

How the data were processed

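Per the labels and the study's methods, the authors aligned uniquely mapping read pairs with Bowtie2, B6 to mm9 and CAST to mm9 carrying CAST variants, and returned CAST positions to mm9 coordinates. Reads of a group were pooled before calling peaks with MACS2, and blacklisted regions and peaks of duplicated reads were removed. The deposited values of each peak are its fold enrichment (a ratio, with a pseudocount of 1), the −log10 p-value and −log10 q-value, and the summit. No authors' comparison was used.

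Peaks were joined at 1 bp of overlap (Python 3.11.15, pandas 2.3.3). Pileups were solved from fold enrichment and p-value, and were within 0.02 of a whole number for at least 99.899% of recovered peaks in each list. Genes came from the GENCODE annotation of mm9, and sequences from mm9. Identities are from global alignments (Biopython 1.88), and a free placement around the starts was added after seeing the data. With 1 pooled list per group, no test between groups was possible. Joining, pileup recovery and word counting were tested on simulated data. The members and gene lists were chosen with earlier results of these data known. Regions were named in full where they lay over or nearest a start, were highest, widest or weakest, were limited to 1 sex or strain, were called in both strains or sexes, or held the qPCR amplicon, and the remaining ones are also given. Alternatives changed the joining, threshold, list size, windows, scaling and motif window.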

Additional observations from a re-analysis of the deposited data

How the results depend on the processing

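The family kept 12 regions, or a count within 1.5 times of it, under every alternative, and 115 of 154 recomputed values stayed close to those reported. No paired analysis was possible because each group is 1 pooled list, and for the same reason no library could be left out. Joining at 50% mutual overlap, joining within 500 bp, requiring the summit in the window and requiring a region to cover the start moved no recomputed count by over 1.5 times. At a stricter threshold (−log10 q of at least 15.7), the regions listed were 2 in female B6 and 3 in female CAST, with 2 in all 4 lists, 0 in both B6 lists only, 0 in both CAST lists only, 1 in both male lists only and 6 in 1 list. The median ratio of male over female in B6 was then 1.02, with 0 regions past 1.5-fold, and 1 region was past it for CAST over B6 in males. With windows of 10 kb, 4 regions were listed in female CAST, 3 in all 4 lists and 0 in both CAST lists only. The median of male over female in B6 was 1.05 with 0 regions past 1.5-fold, and 1 region was past it for CAST over B6 in males. Windows of 50 kb added 1 region found in both male lists only. Lists of equal size gave 2 regions in both B6 lists only. Without division by the median, the median ratios were 1.60 and 1.29 for male over female in B6 and CAST and 1.36 for CAST over B6 in females, with 5, 1 and 1 regions past 1.5-fold. With pileup over the genome-wide background, 3, 1 and 4 regions were past it for male over female in B6 and CAST and for CAST over B6 in males, and the medians of the last 2 were 0.897 and 0.825. With widths, the medians were 0.935 for male over female in B6 and 0.908 for CAST over B6 in females, and 0, 2, 0 and 3 regions were past 1.5-fold, for male over female in B6 and CAST and CAST over B6 in males and females. Within 2500 bp of a start, 2 members had a region in female CAST. In 200 bp around the summit, 0 regions held the HNF4A word and 1 the C/EBP word. In an alternative added after seeing the data, placing the Cyp3a41a upstream sequence freely around the start of Cyp3a11 gave 75.8% identity in place of 51.1%. The calls of single regions between sexes or strains thus depend on the measure used, and the cause was not tested.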

Other observations

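The cluster held 5 further regions outside the windows of the 7 genes. Beside the region 20345 bp upstream of Cyp3a11 given above, a region 31541 bp upstream of Cyp3a11 (chr5:146723081-146724964) was listed in all 4 groups, with a fold enrichment of 6.43 and 4.56 in the B6 male and female lists, and 6.44 and 4.51 in those of CAST. A region 23308 bp upstream of Cyp3a11 was found in both male lists and in neither female list, at 2.66 in B6 and 3.10 in CAST. A region 24537 bp upstream of Cyp3a11 was listed in male B6 alone, at 1.84. The last was 57867 bp upstream of Cyp3a41b, in the stretch between that gene and Cyp3a41a, and was listed in female CAST alone at 3.13, with 63.5% of the words around its summit single in mm9.

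Cyp3a57 (chr5:146106148-146151381) and Cyp3a59 (chr5:146890834-146924861), 2 further P450 genes at the ends of the cluster, had 0 regions within 20 kb. Their windows had 81.4% and 73.4% single words, shares above that of Cyp3a16, at which 4 regions were found.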
